A study of Mus musculus with 23 samples.

Results

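The 10 genes described here mark macrophages, the phagocytes that live in or enter tissue, and were measured in mammary fat pad lying beside a breast tumor. They are Adgre1, Csf1r, Cd68, Itgam, Ms4a7, Mrc1, Cd163, Mertk, Lyve1 and Timd4, taken by name as a list of general and resident macrophage genes and making 10 of the 47311 genes in the tables. All 10 passed the filter on low counts, which left 19882 genes for testing. The tissue came from 23 female C57BL/6J mice, with 1 library per mouse. Every mouse bore a tumor of E0771, a mammary carcinoma line of the same strain made to express luciferase, of which 250000 cells had been placed into gland 4 with 25% matrigel. There were 8 obese mice given anti-PD-1, 5 obese mice given the IgG2a isotype control, 5 lean mice given anti-PD-1 and 5 lean mice given IgG2a. Fat supplied 60% of the energy of the obese mice's chow and 10% of that of the lean mice's, and the feeding described ran from week 8 to week 26 of life. For lean libraries too, the protocol text mentions just the high-fat chow. Anti-PD-1 blocks an inhibitory receptor of T cells, and 200 µg of either antibody was given every 3 days from day 3. The mice were sacrificed on day 21. Because this is bulk tissue, fewer cells of a type and less RNA per cell cannot be told apart.

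Macrophages of fat tissue depend on the growth factor CSF1 and take up dying cells, lipid, iron and debris. Some are long-lived residents along vessels and between fat cells, and others descend from blood monocytes, which enter in larger numbers in obesity and in tumors. Adgre1 encodes F4/80, a surface receptor used to stain mouse macrophages, Csf1r the receptor for CSF1, Cd68 a glycoprotein of lysosomes, and Itgam the CD11b chain of an integrin that monocytes and neutrophils carry too. Ms4a7 encodes a membrane protein of the MS4A family. Mrc1 encodes the mannose receptor CD206 and Cd163 the scavenger receptor for hemoglobin bound to haptoglobin, both common on resident macrophages. Mertk encodes a receptor kinase that recognises dying cells through bridging ligands, Timd4 a receptor for phosphatidylserine on dying cells, and Lyve1 a hyaluronan receptor shared by resident macrophages and lymphatic endothelium.

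Values per library are given as CPM (counts scaled to a common library size after TMM normalization), and TPM (transcript abundance scaled for length and library) is used to set genes side by side. Depth was 49438121 to 77369057 estimated counts per library. A gene is said to have risen or fallen where edgeR's quasi-likelihood test gave a Benjamini-Hochberg adjusted p under 0.05 over all genes tested. Libraries fell into separate sets by a score of 9 B cell genes (mean log2 CPM), which lay between 5.30 and 8.46 in 11 libraries and between -2.96 and -0.51 in the other 12. The 11 comprised obese anti-PD-1 libraries 3 and 4, obese IgG2a libraries 1 and 3, lean anti-PD-1 libraries 1, 3 and 5 and lean IgG2a libraries 1, 2, 3 and 4. Their summed stroma genes of lymph nodes reached at least 637 TPM, against at most 6.46 TPM in the others. Obese IgG2a library 5 held 6929 TPM of summed liver genes, against at most 111 TPM elsewhere. The tumor-linked genes Hmga2 and Fosl1 summed to 183 TPM there and to 122 TPM in obese IgG2a library 2, against at most 24.1 TPM in any other library. Results that rest on these libraries are given with and without them.

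By TPM, the median over the 23 libraries was highest for Cd68 (34.2 TPM), followed by Csf1r (20.2 TPM), Mrc1 (11.3 TPM) and Ms4a7 (6.17 TPM). Then came Adgre1 (5.69 TPM), Cd163 (4.99 TPM), Itgam (4.58 TPM), Mertk (3.96 TPM), Lyve1 (2.73 TPM) and Timd4 (1.01 TPM). Neighbours in this order had overlapping ranges in every case. The 10 genes together summed to a median of 133 TPM in obese anti-PD-1, 181 TPM in obese IgG2a, 82.3 TPM in lean anti-PD-1 and 88.7 TPM in lean IgG2a mice. TPM raises fold changes for obesity across the table, with a median shift over all genes of 0.22 log2 units under IgG2a and 0.36 under anti-PD-1 relative to TMM-scaled counts, so groups are compared in CPM. Every library had TPM above 0 for 9 of the 10 genes, and Timd4 was listed at 0 in obese anti-PD-1 libraries 5 and 6. Adipocyte genes summed to at least 5813 TPM in every library.

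The letters upstream of the 4 genes that changed in at least 1 comparison are shown because these genes carry the results below. Each line gives the 250 bases before the RefSeq start on GRCm38.p6, 5′ to 3′ on the gene's strand. The windows are chr7:128062390-128062639 (plus strand) for Itgam, chr11:69666171-69666420 (minus strand) for Cd68, chr2:128698665-128698914 (plus strand) for Mertk and chr19:11336147-11336396 (minus strand) for Ms4a7. Capitals mark GAGGAA or its reverse complement TTCCTC, the core letters of sites bound by PU.1, a transcription factor of myeloid cells.
Itgam: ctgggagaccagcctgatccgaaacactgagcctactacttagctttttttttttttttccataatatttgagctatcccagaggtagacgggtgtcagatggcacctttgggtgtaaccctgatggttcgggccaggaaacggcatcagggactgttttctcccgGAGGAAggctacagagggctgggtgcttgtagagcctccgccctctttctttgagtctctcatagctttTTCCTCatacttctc
Cd68: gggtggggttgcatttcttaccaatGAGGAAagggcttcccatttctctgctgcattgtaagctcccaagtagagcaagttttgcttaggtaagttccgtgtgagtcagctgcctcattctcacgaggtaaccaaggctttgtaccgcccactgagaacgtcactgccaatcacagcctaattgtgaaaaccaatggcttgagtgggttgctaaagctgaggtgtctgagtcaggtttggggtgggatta
Mertk: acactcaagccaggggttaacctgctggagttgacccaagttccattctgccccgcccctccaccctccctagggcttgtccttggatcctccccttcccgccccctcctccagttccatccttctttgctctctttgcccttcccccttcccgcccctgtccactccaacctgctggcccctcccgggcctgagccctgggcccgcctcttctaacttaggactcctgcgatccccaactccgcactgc
Ms4a7: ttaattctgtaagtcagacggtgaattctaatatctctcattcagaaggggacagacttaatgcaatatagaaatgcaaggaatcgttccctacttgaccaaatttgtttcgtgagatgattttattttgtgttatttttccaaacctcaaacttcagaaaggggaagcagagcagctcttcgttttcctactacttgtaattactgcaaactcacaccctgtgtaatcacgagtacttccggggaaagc
Itgam held 2 matches, the nearer one 15 bases before the start, and Cd68 held 1, while the windows of Mertk and Ms4a7 had none. The promoter table held 7 of the 10 genes, and 3 of the 7 (Itgam, Cd68 and Mrc1) had a match. Of all 32851 promoter windows of the same length, 23.3% had one. Adgre1, Csf1r and Lyve1 were not in the table used here.

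**Figure D1:**
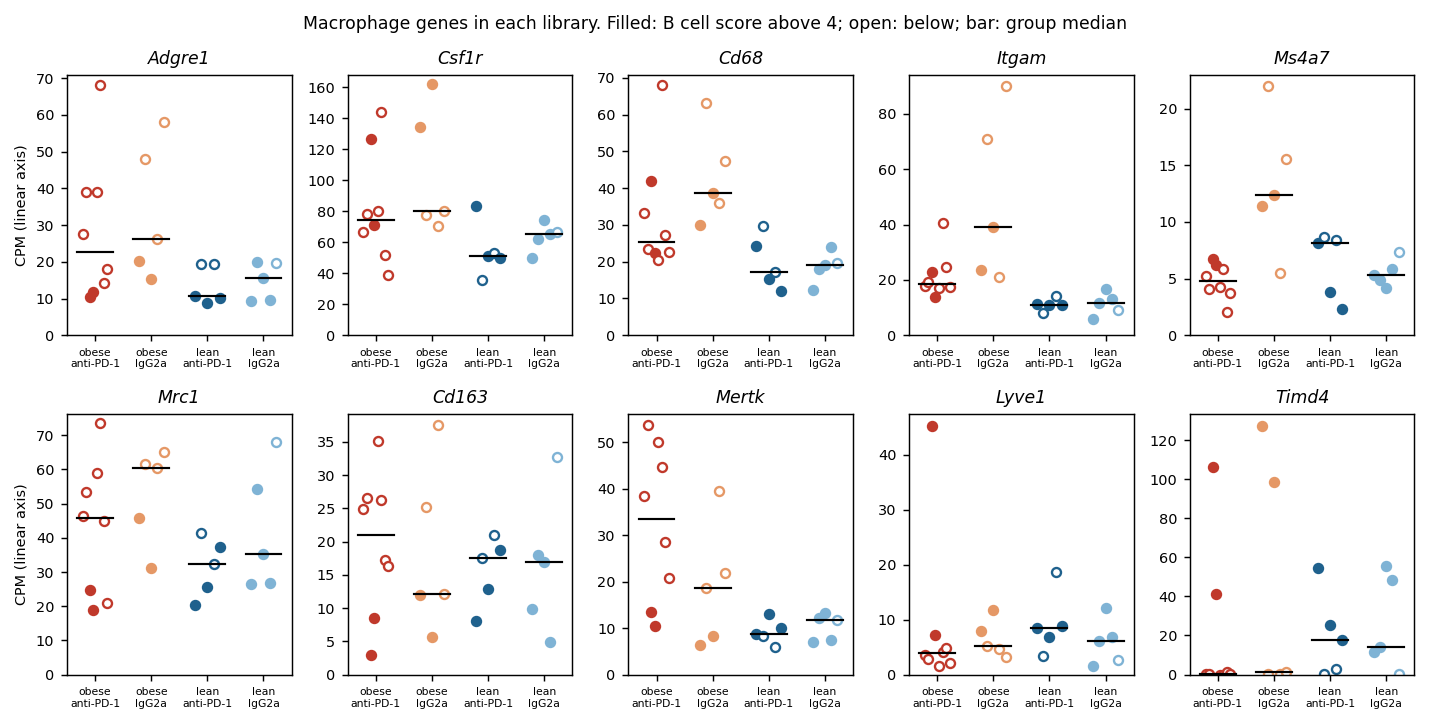
Level of each gene in CPM (linear axis from 0), 1 point per library, for obese anti-PD-1 (n = 8), obese IgG2a, lean anti-PD-1 and lean IgG2a mice (n = 5 each). Filled points have a B cell score above 4 and black bars are group medians. Obese IgG2a libraries lie above all lean IgG2a libraries for Cd68 and Itgam, and Timd4 is high in filled points alone.

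The first comparison asked how obesity alters these genes without checkpoint blockade. Under IgG2a, Itgam and Cd68 rose in obese mice and the other 8 genes did not pass the test, so 2 of 10 changed, both upward, against 5.79% of all genes tested (2.68% upward and 3.12% downward). All 10 fold changes were positive, with a median log2 fold change of 0.84, while over all genes tested 57.4% were positive and the median was 0.12. Itgam and Cd68 were also the members whose libraries did not overlap between groups, which held for 6.25% of all genes (1.83% higher and 4.42% lower in obese mice). Markers of other cells moved too. Of 7 mammary epithelium genes 3 fell, with 320 to 904 TPM in summed level in obese IgG2a and 900 to 1327 TPM in lean IgG2a libraries. All 6 adipocyte genes had negative fold changes (median -0.57) and none was called, with 1 at an unadjusted p under 0.05. The 6 skeletal muscle genes were all negative too (median -3.21), with 0 called and 0 at an unadjusted p under 0.05. Their summed level was 14.5 to 334 TPM in obese IgG2a and 15.9 to 2397 TPM in lean IgG2a libraries. Of 7 liver genes 5 rose (median log2 fold change of the 7, 9.96). Each of these calls was lost without obese library 5 (adjusted p 0.338 to 0.563). The tumor-linked genes rose, Hmga2 by 7.26 (adjusted p = 0.00373) and Fosl1 by 5.76 (adjusted p = 0.00708). Without obese libraries 2 and 5 their values were 4.17 (adjusted p = 0.0761) and 2.75 (adjusted p = 0.235). The part of these cells and tissues in the members' values was not tested.

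Itgam (ENSMUSG00000030786, GRCm38 chromosome 7, 128062640 to 128118491) had 23.6, 70.8, 39.1, 20.9 and 90.05 CPM in obese IgG2a mice, against 5.91, 11.7, 16.5, 13.1 and 8.95 CPM in lean IgG2a mice. Every obese library lay above every lean one, and obese libraries 2 and 5 were the highest. Its means were 48.9 ± 30.4 and 11.3 ± 4.05 CPM (SD, n = 5 each), a log2 fold change of 2.12 (SE 0.375, adjusted p = 0.00174). It was the member with the smallest p in this comparison. Without obese libraries 2 and 5, the pair with the highest tumor-linked genes, it was 1.34 (adjusted p = 0.0419). Obese library 4, which stayed in that fit, held 24.1 TPM of these genes, against at most 0.856 TPM in lean IgG2a libraries. Among libraries with a B cell score above 4 the Itgam value was 1.38 (adjusted p = 0.0342). Below 4, where lean IgG2a had 1 library that was assumed to vary like the other groups, it was 2.72 and did not pass (adjusted p = 0.118). CD11b is not particular to macrophages: summed neutrophil genes reached 63.0 to 370 TPM in obese IgG2a and 5.66 to 13.01 TPM in lean IgG2a libraries, and summed monocyte genes 40.5 to 483 and 25.3 to 233 TPM. All 8 neutrophil genes tested had positive fold changes (median log2 fold change 4.43), with 7 at an unadjusted p under 0.05 by edgeR. The 1 called was S100a8 (log2 fold change 4.29, adjusted p = 0.0167, and 0.0527 without lean IgG2a library 5). Ly6g reached at most 1.87 CPM in any library. The part of these cells in the Itgam result was not tested.

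Cd68 (ENSMUSG00000018774, chromosome 11, 69664213 to 69666153) had 30.0, 63.2, 38.8, 36.1 and 47.5 CPM in obese IgG2a mice, against 12.2, 18.1, 19.2, 24.1 and 19.7 CPM in lean IgG2a mice. The lowest obese library stood above the highest lean one. Means were 43.1 ± 12.9 and 18.6 ± 4.28 CPM (SD, n = 5 each), a log2 fold change of 1.21 (SE 0.321, adjusted p = 0.0280). The call rested on single libraries. It was lost when any 1 of obese IgG2a libraries 2 or 5 or lean IgG2a libraries 1, 2, 3 or 5 was left out (highest adjusted p 0.0932, without lean IgG2a library 1), while the fold change stayed between 1.05 and 1.34. Without obese libraries 2 and 5 together it was 0.93 (adjusted p = 0.287).

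Ms4a7 (ENSMUSG00000024672, chromosome 19, 11321039 to 11336146) had 11.4, 22.001, 12.3, 5.52 and 15.6 CPM in obese IgG2a mice, against 5.30, 4.91, 4.20, 5.83 and 7.38 CPM in lean IgG2a mice. Of the obese libraries, 4 lay above all lean ones and library 4 lay among them. The log2 fold change of 1.28 (SE 0.389, 95% interval 0.47 to 2.08) had an adjusted p of 0.0541 and did not pass, and was 0.85 (adjusted p = 0.492) without obese libraries 2 and 5. Adgre1 (ENSMUSG00000004730, chromosome 17, 57358691 to 57483527) had 20.3, 48.0, 15.3, 26.1 and 57.9 CPM in obese IgG2a mice, against 9.35, 19.8, 15.7, 9.49 and 19.6 CPM in lean IgG2a mice. The 2 highest obese libraries were again 2 and 5, and the groups overlapped (log2 fold change 1.18, SE 0.471, adjusted p = 0.149). The value for Adgre1 was 0.48 without obese libraries 2 and 5 (adjusted p = 0.805) and 0.36 among libraries with a B cell score above 4 (adjusted p = 0.490), while voom called it (1.35, adjusted p = 0.00754). Csf1r (ENSMUSG00000024621, chromosome 18, 61100598 to 61132149) had 134, 77.5, 162, 70.6 and 80.4 CPM in obese IgG2a mice, against 49.9, 62.2, 74.3, 65.0 and 66.4 CPM in lean IgG2a mice. Its 2 highest libraries were instead obese libraries 1 and 3, both with a high B cell score. The log2 fold change of 0.72 (SE 0.310) did not pass (adjusted p = 0.185). Among libraries with a B cell score above 4 it was 1.21 (adjusted p = 0.0228). That was the 1 call among 35 alternatives, whose values ran down to 0.15. Below 4, obese libraries 2, 4 and 5 had 77.5, 70.6 and 80.4 CPM, against 66.4 CPM in the 1 lean library.

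None of the members typical of resident cells passed the test under IgG2a. Mrc1 (ENSMUSG00000026712, chromosome 2, 14229392 to 14332057) had a log2 fold change of 0.33 (95% interval -0.40 to 1.06) and Cd163 (ENSMUSG00000008845, chromosome 6, 124304656 to 124330527) of 0.17 (-0.97 to 1.305) in obese IgG2a against lean IgG2a mice. Mertk had 0.88 (-0.06 to 1.82), Lyve1 0.16 (-1.45 to 1.77) and Timd4 0.80 (-3.28 to 4.87). Each interval held 0, and that of Timd4 was the widest. Among 14 other genes of resident macrophages, which include Folr2, Cbr2, F13a1 and Vsig4, 0 were called by edgeR, with a median log2 fold change of -0.26 and 2 at an unadjusted p under 0.05. DESeq2 called 2 of them and voom 3.

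**Figure D2:**
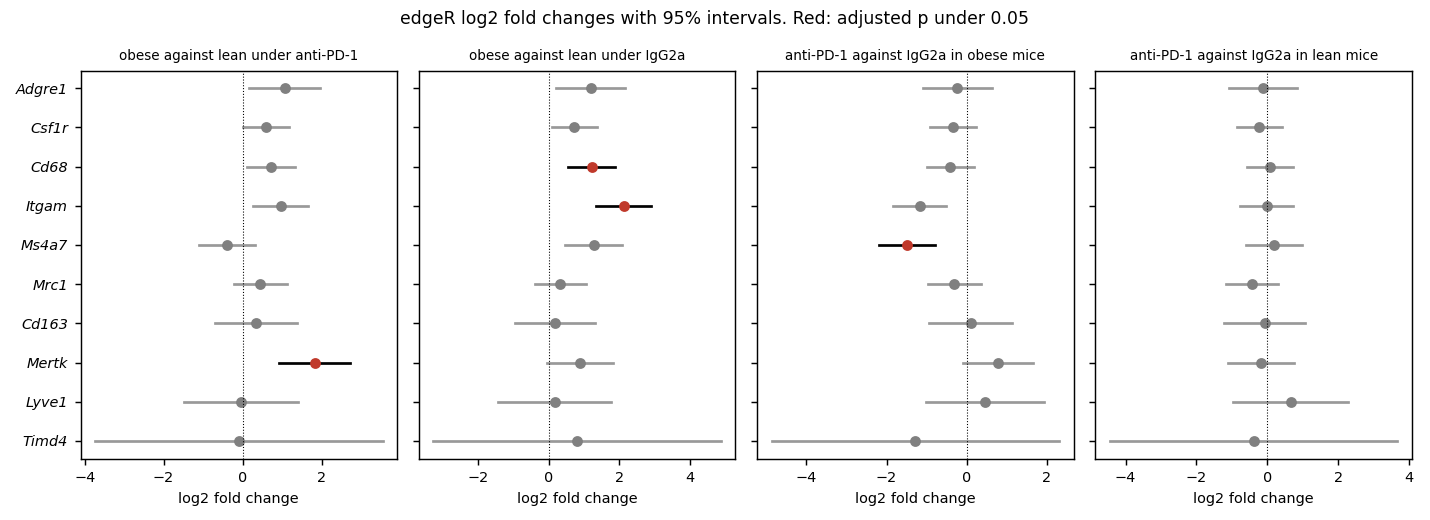
Log2 fold change (x axis) of each gene with its 95% interval from the edgeR fit, for obesity under anti-PD-1, obesity under IgG2a, anti-PD-1 in obese mice and anti-PD-1 in lean mice. Red marks an adjusted p under 0.05, which Cd68 and Itgam have for obesity under IgG2a, Mertk for obesity under anti-PD-1 and Ms4a7 for anti-PD-1 in obese mice. The intervals of Timd4 span more than 6 log2 units.

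Genes of the same pathways were counted beside the members in obese IgG2a against lean IgG2a mice. Of 11 macrophage growth factor and transcription factor genes, 2 rose and 0 fell. Among them was Csf1, the ligand of the receptor encoded by Csf1r (log2 fold change 1.36, SE 0.298, adjusted p = 0.00897). Without obese IgG2a libraries 2 and 5 Csf1 did not pass (0.80, adjusted p = 0.214). Of 12 other general macrophage genes, 2 rose: Fcgr1, an antibody receptor (1.73, adjusted p = 0.0411), and Sirpa, an inhibitory receptor for CD47 (1.04, adjusted p = 0.0430). Both lost the call without that pair of libraries (adjusted p 0.536 for Fcgr1 and 0.101 for Sirpa). Among integrin relatives of CD11b there was Itgad, the CD11d chain, the 1 of 6 genes for the partner, relatives and ligands of CD11b to rise, while 0 fell. Itgad had 0.405, 12.6, 2.11, 40.6 and 6.30 CPM in obese IgG2a mice, against 0.247, 0.0588, 0.141, 0.268 and 0.356 CPM in lean IgG2a mice. No obese library fell among the lean ones, although the lowest obese value was close to the highest lean one (log2 fold change 5.84, SE 1.26, adjusted p = 0.00836; 6.04, adjusted p = 0.0265, without obese libraries 2 and 5).

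In iron and hemoglobin handling, the pathway of Cd163, 4 of 8 genes rose under IgG2a with obesity and 0 fell. Hmox1, the enzyme that breaks down heme, averaged 93.7 CPM in obese IgG2a and 26.3 CPM in lean IgG2a mice (log2 fold change 1.83, adjusted p = 0.00175), and kept its call without obese libraries 2 and 5 (1.81, adjusted p = 0.0126). Slc40a1, the iron exporter ferroportin, rose by 1.36 (adjusted p = 0.0197) and lost the call without them (adjusted p = 0.123). Hpx, a heme-binding protein made in liver, rose by 7.82 (adjusted p = 0.0218), and without obese library 5, the one with high liver genes, its adjusted p was 0.288. Of 12 genes for taking up dying cells, the pathway of Mertk, 1 rose: Axl, a relative of Mertk (1.62, adjusted p = 0.00648; 0.70, adjusted p = 0.207, without libraries 2 and 5). Of 5 relatives of Ms4a7, 2 rose: Ms4a6d (2.25, adjusted p = 0.00463) and Ms4a4a (2.01, adjusted p = 0.0243), and neither passed without that pair (adjusted p 0.186 and 0.529). Of 8 hyaluronan genes, the ligand pathway of Lyve1, 2 rose: the synthase Has3 (2.93, adjusted p = 0.00334) and the receptor Cd44 (2.08, adjusted p = 0.0120). Has3 kept its call without that pair (2.96, adjusted p = 0.0188) and Cd44 did not (1.49, adjusted p = 0.178). Of the 3 relatives of Timd4 none was called, with 0 at an unadjusted p under 0.05. Of 8 genes of lipid-associated macrophages, a monocyte-derived state of obese fat, 4 rose and 1 fell. Mmp12, a matrix protease (3.12, adjusted p = 0.00325), and Trem2, a lipid receptor (2.86, adjusted p = 0.00430), rose, and the fatty acid carrier Fabp5 fell by 1.79 (adjusted p = 0.00467). Mmp12, Trem2 and Fabp5 kept their calls without obese libraries 2 and 5. The other called genes of the list did not, with Spp1 at 4.81 (1.90 without the pair, adjusted p = 0.339) and Gpnmb at 2.36 (1.49 without it, adjusted p = 0.354).

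The second comparison set obese against lean mice under anti-PD-1. Mertk rose, and it was the 1 member of 10 to pass the test, against 10.1% of all genes tested (5.2% upward and 4.85% downward). Of the 10 fold changes 7 were positive, with a median of 0.52 log2 units, while 54.7% of all genes were positive with a median of 0.08. No member had groups without overlap, which 4.82% of all genes showed (1.71% higher and 3.11% lower in obese mice). Of 7 mammary epithelium genes all 7 fell in this comparison, with a summed level of 237 to 1476 TPM in obese anti-PD-1 and 877 to 3131 TPM in lean anti-PD-1 libraries. Of 6 skeletal muscle genes 4 fell (median log2 fold change of the 6, -6.90), with at most 93.8 TPM in summed level in obese anti-PD-1 libraries, against 2521 and 686 TPM in lean anti-PD-1 libraries 2 and 1 and at most 14.2 TPM in the other lean anti-PD-1 libraries. Neutrophil genes summed to 10.5 to 248 TPM and 0.479 to 7.95 TPM in the same groups. The part of these tissues and cells in the members' values was not tested.

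Mertk (ENSMUSG00000014361, chromosome 2, 128698956 to 128802894) ranged from 10.5 to 53.8 CPM with a median of 33.5 CPM in the 8 obese anti-PD-1 libraries, against 8.70, 8.26, 12.97, 5.93 and 9.94 CPM in lean anti-PD-1 mice. Obese libraries 3 and 4 were the lowest at 13.5 and 10.5 CPM, library 4 lay among the lean ones, and both had a B cell score above 4. Means were 32.5 ± 16.6 CPM in obese anti-PD-1 mice (SD, n = 8) and 9.16 ± 2.58 CPM in lean anti-PD-1 mice (SD, n = 5). The log2 fold change was 1.83 (SE 0.436, adjusted p = 0.0103), and it kept its call with any 1 library left out (1.68 to 1.98). Among libraries with a score below 4 (6 obese, 2 lean) the log2 fold change was 2.38 (adjusted p = 0.00357), among those above 4 (2 obese, 3 lean) it was 0.24 (adjusted p = 0.759), and with the score as a covariate it was 1.27 (adjusted p = 0.0347). The difference between the sets was not tested. Obese IgG2a mice had, as a description, 6.28 and 8.31 CPM in libraries 1 and 3, and 18.7, 39.5 and 21.9 CPM in the others.

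Itgam ranged from 13.7 to 40.4 CPM with a median of 18.6 CPM in obese anti-PD-1 libraries, against 11.3, 8.07, 10.8, 14.1 and 11.1 CPM in lean anti-PD-1 mice. A single obese library, at 13.7 CPM, fell below the highest lean one. The log2 fold change of 0.97 (SE 0.336, 95% interval 0.27 to 1.66) did not pass (adjusted p = 0.0701), although DESeq2 (adjusted p = 0.0337) and voom (adjusted p = 0.0291) called it. Cd68 averaged 32.5 ± 16.1 CPM in obese anti-PD-1 (n = 8) and 19.7 ± 7.22 CPM in lean anti-PD-1 mice (n = 5; log2 fold change 0.72, SE 0.292, adjusted p = 0.121). Adgre1 averaged 28.5 ± 19.6 and 13.7 ± 5.21 CPM in the same groups, a log2 fold change of 1.06 (SE 0.435) that did not pass (adjusted p = 0.126). Csf1r had 82.1 ± 35.7 and 54.4 ± 17.6 CPM, a log2 fold change of 0.60 (SE 0.283, adjusted p = 0.196). Ms4a7 was the member with the lowest fold change, at -0.39 (95% interval -1.10 to 0.31). It had 2.05 to 6.72 CPM in obese anti-PD-1 libraries, against 8.15, 8.71, 3.83, 8.38 and 2.28 CPM in lean anti-PD-1 mice, and the groups overlapped.

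Mrc1 averaged 42.7 ± 19.7 CPM in obese anti-PD-1 and 31.4 ± 8.53 CPM in lean anti-PD-1 mice, and Cd163 19.7 ± 10.5 and 15.6 ± 5.20 CPM. Their log2 fold changes of 0.44 (-0.22 to 1.11) and 0.34 (-0.70 to 1.37) did not pass. Lyve1 (ENSMUSG00000030787, chromosome 7, 110850607 to 110863239) ranged from 1.51 to 45.3 CPM with a median of 3.84 CPM in obese anti-PD-1 libraries, against 8.50, 3.36, 6.76, 18.7 and 8.84 CPM in lean anti-PD-1 mice. Obese library 3 held the 45.3 CPM, and the next obese library had 7.19 CPM. The log2 fold change of -0.05 (-1.50 to 1.40) turned on that library: without it the value was -1.31 (adjusted p = 0.0834). Among libraries with a B cell score below 4 Lyve1 fell by 1.90 (adjusted p = 0.0445), with 6 obese and 2 lean libraries. The obese ones had 1.51 to 4.80 CPM. Lean library 2, at 3.36 CPM, lay among them, and lean library 4, at 18.7 CPM, lay above. Among libraries above 4 the Lyve1 value was 1.78 (adjusted p = 0.228). Markers of lymphatic endothelium summed to 6.77 to 18.0 TPM in obese anti-PD-1 and 3.57 to 9.85 TPM in lean anti-PD-1 libraries. In TMM-scaled counts the direction differed: 1 of the 5 genes had a positive fold change (median log2 fold change -0.26), and 0 were called. The part of lymphatic endothelium in the Lyve1 values was not tested.

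Under anti-PD-1, the companion genes gave 4 of 11 growth and transcription factor genes higher in obese mice and 0 lower. Csf1 (0.94, SE 0.272, adjusted p = 0.0305), Maf (0.61, adjusted p = 0.0329) and Csf2ra (0.75, adjusted p = 0.0420) rose. Maf is a transcription factor of resident macrophages and Csf2ra a chain of the receptor for GM-CSF. Of the 12 other general macrophage genes none rose and Cd14, a receptor for bacterial lipopolysaccharide, fell by 0.96 (adjusted p = 0.0303). Calls of Cd14, Csf2ra and Maf were lost without lean anti-PD-1 library 2 (adjusted p 0.159, 0.122 and 0.0982), and that of Csf1 without lean anti-PD-1 library 4 (adjusted p 0.0835). Of the 14 other resident macrophage genes edgeR again called 0, with a median of -0.18 and 2 at an unadjusted p under 0.05, while DESeq2 called 1 and voom 2. In uptake of dying cells, 1 of 12 genes rose and 1 fell. Mfge8, a bridge between phosphatidylserine and integrins, rose by 0.93 (adjusted p = 0.0325), and Gas6, a bridging ligand of Mertk, fell by 0.89 (adjusted p = 0.0306). Mfge8 lost its call without lean anti-PD-1 library 4 (adjusted p 0.0908) and Gas6 without lean anti-PD-1 library 5 (adjusted p 0.109). Iron handling had 4 of 8 genes higher and 0 lower, among them Slc40a1 (1.34, adjusted p = 0.00924), Hmox1 (1.21, adjusted p = 0.0120) and Slc11a1, a metal transporter of phagosomes (1.46, adjusted p = 0.0195). Itgad ranged from 1.73 to 52.2 CPM in obese anti-PD-1 libraries, against 0.721, 0, 0.151, 0 and 0.245 CPM in lean anti-PD-1 mice. Each obese library lay above each lean one (log2 fold change 7.11, SE 1.31, adjusted p = 0.00143), and complement C3, a ligand of CD11b, fell by 1.35 (adjusted p = 0.0315; 0.0803 without lean anti-PD-1 library 4). Lipid-associated genes had 3 of 8 higher and 1 lower, with Mmp12 at 3.43 (adjusted p = 0.000652), Trem2 at 2.74 (adjusted p = 0.00236) and Gpnmb, a lysosomal glycoprotein, at 2.29 (adjusted p = 0.0157). Of the MS4A relatives, the hyaluronan genes and the TIM family none was called, with 0 of 5, 0 of 8 and 1 of 3 at an unadjusted p under 0.05.

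The third comparison asked what anti-PD-1 did in obese mice. Ms4a7 fell, and it was the 1 member of 10 to change, against 0.538% of all genes tested (0.00503% upward and 0.533% downward). No member had groups without overlap, which 0.111% of all genes showed (0.0553% in each direction). It shares the obese IgG2a libraries with the first comparison, so the 2 results are not independent. Of the 10 fold changes 3 were positive, and the median was -0.33, against 0.00 over all genes.

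Ms4a7 had 5.22, 4.10, 6.72, 6.22, 4.27, 5.83, 2.05 and 3.74 CPM in obese anti-PD-1 mice, against 11.4, 22.001, 12.3, 5.52 and 15.6 CPM in obese IgG2a mice. The groups overlapped through obese IgG2a library 4, which lay within the anti-PD-1 range. Means were 4.77 ± 1.53 CPM (SD, n = 8) and 13.4 ± 6.04 CPM (SD, n = 5), a log2 fold change of -1.49 (SE 0.339, adjusted p = 0.0498). The p lay at the threshold, and the call was kept in 6 of 23 fits that each left out 1 library. In these 23 fits the log2 fold change stayed between -1.70 and -1.24. The adjusted p reached 0.514 without obese IgG2a library 5 and 0.221 without library 2. Spp1 had the same adjusted p of 0.514 without library 5, so that value is not particular to Ms4a7. Without both libraries the log2 fold change of Ms4a7 was -1.04 (adjusted p = 0.556). In obese mice with a B cell score below 4 (6 anti-PD-1, 3 IgG2a) Ms4a7 fell by 1.83 (adjusted p = 0.0281), and above 4 (2 of each) the value was -0.82 (adjusted p = 0.689). The 3 IgG2a libraries below 4 were 2, 4 and 5. The fall below 4 therefore includes libraries 2 and 5 and is not independent of the main result.

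Itgam had a log2 fold change of -1.18 (SE 0.319, 95% interval -1.84 to -0.51) for anti-PD-1 against IgG2a in obese mice and did not pass (adjusted p = 0.0904). Its values of 13.7 to 40.4 CPM in obese anti-PD-1 libraries overlapped the 20.9 to 90.05 CPM of obese IgG2a libraries. DESeq2 (adjusted p = 0.0321) and voom (adjusted p = 0.000957) called it, and without obese IgG2a libraries 2 and 5 it was -0.39 (adjusted p = 0.629). Mertk went the other way without passing, at 0.78 (-0.08 to 1.64, adjusted p = 0.417). Cd68 had -0.41 (adjusted p = 0.544), Csf1r -0.35 (adjusted p = 0.614), Mrc1 -0.31 (adjusted p = 0.731) and Adgre1 -0.24 (adjusted p = 0.869). Adgre1 changed sign, to 0.44, without obese IgG2a libraries 2 and 5. Of the companion lists, 1 iron handling gene (Hpx, -7.11, adjusted p = 0.0426) and 1 lipid-associated gene (Spp1, osteopontin, -3.60, adjusted p = 0.0498) fell, along with the Kupffer cell gene Clec4f (-9.11, adjusted p = 0.0424), which had 14.8 CPM in obese IgG2a library 5 and at most 0.805 CPM elsewhere. Without that library, Hpx, Spp1 and Clec4f lost their calls (adjusted p 0.515, 0.514 and 0.514). In the same comparison 6 of 7 liver genes fell (median log2 fold change -8.70), as did both tumor-linked genes, Hmga2 by 5.06 (adjusted p = 0.0373) and Fosl1 by 4.03 (adjusted p = 0.0498). The part of these tissues in the fall of Ms4a7 was not tested. The 12 other general macrophage genes all had negative fold changes and none was called, with 4 at an unadjusted p under 0.05.

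**Figure D3:**
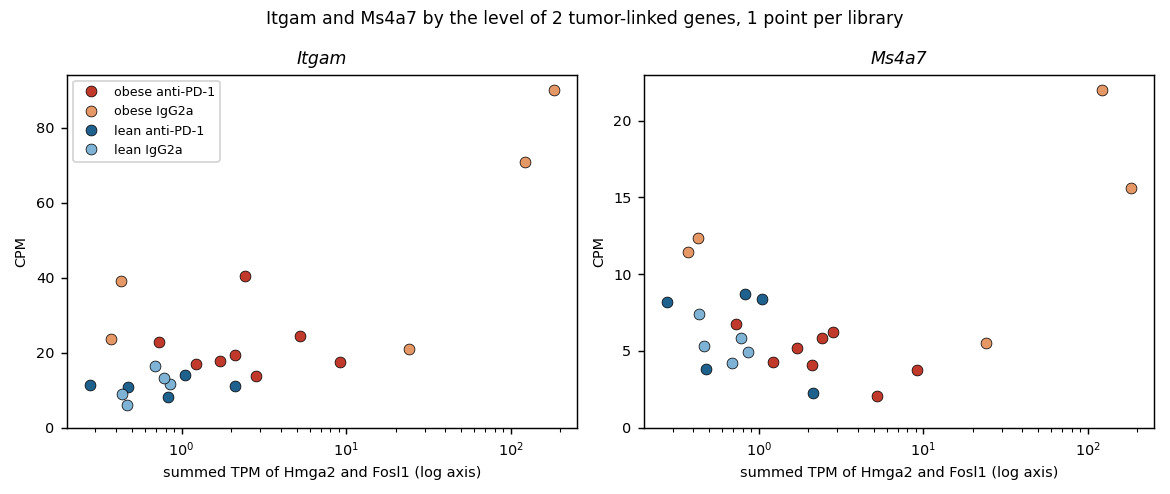
CPM of Itgam and Ms4a7 (y axes, linear) against the summed TPM of Hmga2 and Fosl1 (x axis, log scale), 1 point per library, colored by group. Obese IgG2a libraries 2 and 5, at 122 and 183 TPM, have the highest Itgam (70.8 and 90.05 CPM) and Ms4a7 (22.001 and 15.6 CPM).

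In lean mice anti-PD-1 changed none of the 10 genes, and edgeR called 0 of all genes tested (0%), with 472 genes (2.37%) and 0 members at an unadjusted p under 0.05. All members' groups overlapped, while 0.553% of all genes had groups without overlap (0.181% higher and 0.372% lower with anti-PD-1). DESeq2 called 22 genes and voom 1, with 0 members in either. Itgam averaged 11.1 ± 2.15 CPM in lean anti-PD-1 and 11.3 ± 4.05 CPM in lean IgG2a mice (SD, n = 5 each), and the log2 fold change of -0.02 had an interval of -0.77 to 0.73. Cd68 averaged 19.7 ± 7.22 and 18.6 ± 4.28 CPM (0.08, interval -0.58 to 0.74). The widest interval was again that of Timd4 (-0.39, from -4.44 to 3.67). These intervals do not show that the antibody had no effect on the 10 genes.

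The interaction, the anti-PD-1 effect in obese mice minus that in lean mice, was called for 0 members and 0 of all genes (0%), with 1449 genes (7.29%) and 2 members at an unadjusted p under 0.05. DESeq2 called 50 genes and voom 623, with 0 members in either. Ms4a7 had an interaction of -1.67 (SE 0.514, adjusted p = 0.420) and Itgam of -1.15 (SE 0.484, adjusted p = 0.646). The fall of Ms4a7 in obese mice was therefore not shown to differ from its change in lean mice (0.18, interval -0.61 to 0.98).

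Timd4 (ENSMUSG00000055546, chromosome 11, 46810800 to 46844332) split by the B cell score within every diet and antibody group. It had 106 and 41.5 CPM in obese anti-PD-1 libraries 3 and 4, 127 and 98.6 CPM in obese IgG2a libraries 1 and 3, 54.5, 25.3 and 17.6 CPM in lean anti-PD-1 libraries 1, 3 and 5, and 11.7, 14.2, 55.8 and 48.6 CPM in lean IgG2a libraries 1, 2, 3 and 4. The other 12 libraries held 0 to 2.65 CPM. The sets did not overlap, and the part of lymph node tissue in these values was not tested. The log2 fold change of Timd4 in obese against lean mice was -0.10 under anti-PD-1 (-3.74 to 3.54), where it changed sign in 22 of 35 alternatives and ran from -5.07 with voom to 1.26 among libraries with a B cell score above 4. Under IgG2a its value of 0.80 ran from -4.71 with voom to 1.78 among libraries above the cut. Marco, a scavenger receptor on macrophages of lymph node and spleen among other tissues, split the libraries the same way, at 13.7 to 319 CPM with a B cell score above 4 and 0.192 to 4.13 CPM below. Clec4f, which defines liver Kupffer cells that also carry Timd4, was at most 0.805 CPM outside obese IgG2a library 5, and Timd4 had 1.35 CPM in that library.

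The other members were set against the B cell score within each diet, as a description, because 9 of the 12 libraries below the cut and 4 of the 11 above it came from obese mice. Cd163 had lower medians above the cut in both diets, with 7.09 CPM above and 25.2 CPM below in obese mice, and 12.8 CPM above and 21.1 CPM below in lean mice. Adgre1 (13.6 and 38.9 CPM in obese mice, 10.3 and 19.4 CPM in lean mice) and Mrc1 (28.0 and 59.0 CPM in obese mice, 26.7 and 41.3 CPM in lean mice) had the same order. Mertk had it in obese mice alone, at 9.42 CPM above and 38.4 CPM below, against 9.94 and 8.26 CPM in lean mice. Ms4a7 ran in opposite directions, at 9.08 CPM above and 5.22 CPM below in obese mice and 4.91 CPM above and 8.38 CPM below in lean mice. Csf1r was higher above the cut, at 130 and 77.5 CPM in obese mice and 62.2 and 52.8 CPM in lean mice. So was Lyve1, at 9.84 and 3.57 CPM in obese mice and 6.82 and 3.36 CPM in lean mice. The Lyve1 ranges of the sets overlapped in lean mice and not in obese mice. Itgam was also higher above the cut, at 23.2 and 20.9 CPM in obese mice and 11.3 and 8.95 CPM in lean mice. Cd68 differed in direction, at 34.4 and 33.2 CPM in obese mice and 18.1 and 19.7 CPM in lean mice. The sets were made from these data, and lean mice had 3 libraries below the cut.

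**Figure D4:**
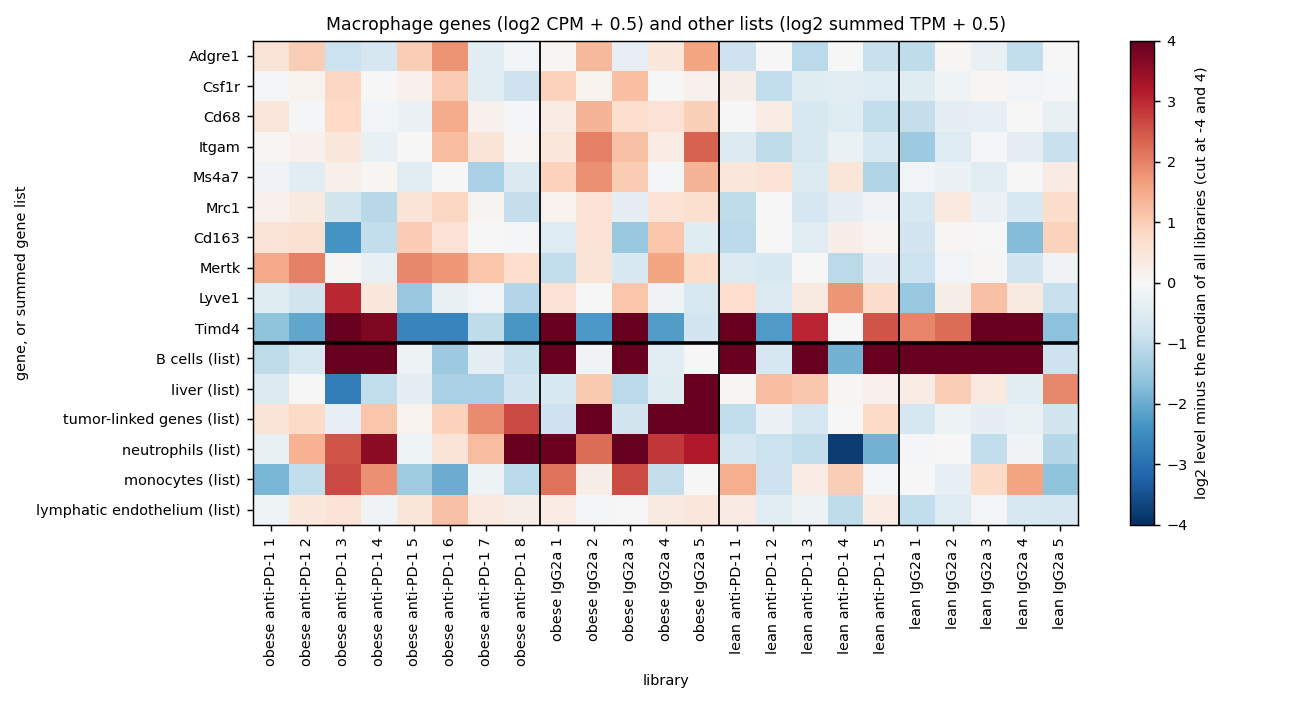
Log2 level of each gene (top, CPM) and of 6 summed marker lists (bottom, TPM) minus its median over the 23 libraries, with 1 column per library and groups split by lines. The Timd4 row follows the B cell row, and liver and tumor-linked rows are high in obese IgG2a library 5.

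Reads of Mrc1, Cd163, Cd68 and Mertk were divided between coding and other transcripts, with higher medians of the other transcripts in lean mice. Mrc1 has 1 protein-coding and 1 retained-intron transcript in the annotation. The retained-intron transcript held a median of 24.3% of the gene's TPM in obese anti-PD-1 (1.17% to 73.3%), 30.5% in obese IgG2a (2.87% to 81.9%), 68.7% in lean anti-PD-1 (29.7% to 81.2%) and 62.3% in lean IgG2a libraries (53.8% to 71.5%). The lean medians were higher, and the ranges of obese and lean libraries overlapped under both antibodies. For Cd163 the share of its retained-intron transcript had medians of 32.8%, 39.5%, 59.8% and 59.0% in the same order of groups. The processed transcript of Cd68 had 21.5%, 37.8%, 52.3% and 54.0%, and that of Mertk 31.5%, 29.5%, 42.6% and 47.9%. In obese mice the shares also split by the B cell score. Mrc1 had 54.4% to 81.9% in the 4 obese libraries above the cut and 1.17% to 33.0% in the 9 below. Cd68 (44.0% to 60.4% and 0% to 37.8%) and Mertk (41.0% to 73.1% and 0% to 36.5%) split likewise, and Cd163 overlapped. The 3 lean libraries below the cut had 29.7%, 81.2% and 62.3% for Mrc1. Diet and B cell score were not separated for these shares. Division of short reads between overlapping transcripts is itself an estimate, the libraries carried no strand, and the pattern was noticed in these data and not tested.

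**Figure D5:**
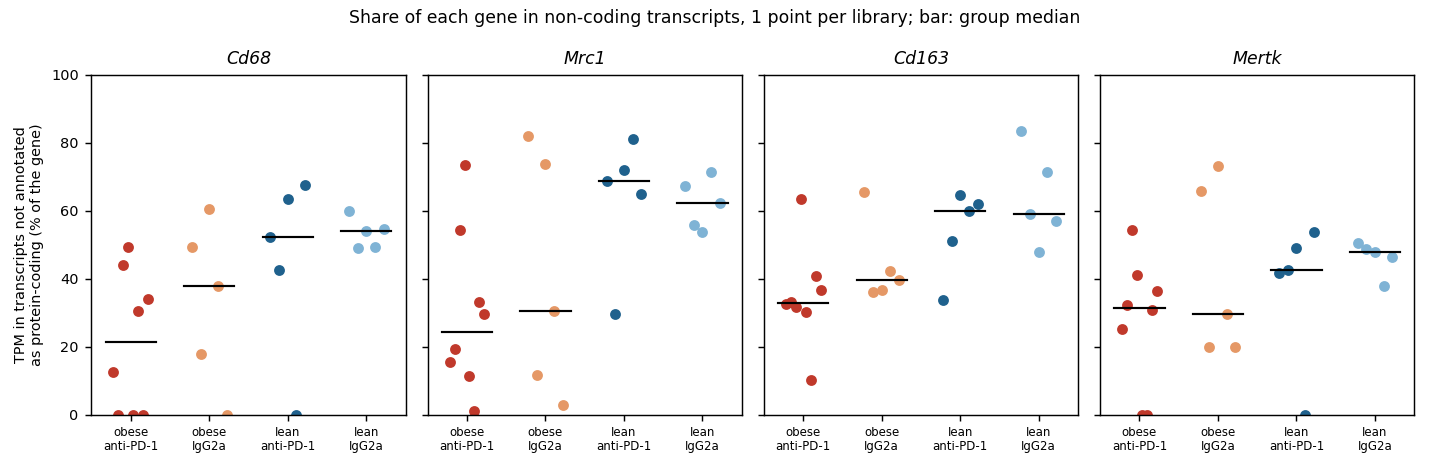
Share of each gene's TPM (y axis, 0 to 100%) in transcripts not annotated as protein-coding, 1 point per library, bars at group medians, for Cd68, Mrc1, Cd163 and Mertk. Lean medians lie between 42.6% and 68.7% and obese medians between 21.5% and 39.5%. In obese mice the shares of Cd68, Mrc1 and Mertk also split by the B cell score.

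Counting coding transcripts alone, a choice made after seeing the data, raised the obesity effect of these 4 genes. In obese anti-PD-1 against lean anti-PD-1 mice the log2 fold change was 2.11 for Mertk (adjusted p = 0.0145), 0.97 for Mrc1 (adjusted p = 0.200), 0.96 for Cd68 (adjusted p = 0.0732) and 0.80 for Cd163 (adjusted p = 0.454). In obese IgG2a against lean IgG2a mice it was 1.49 for Cd68 (adjusted p = 0.0200), 1.12 for Mertk (adjusted p = 0.264), 0.64 for Mrc1 (adjusted p = 0.566) and 0.55 for Cd163 (adjusted p = 0.742). Mean coding TPM of Mrc1 was 9.94 ± 6.16 in obese anti-PD-1 and 10.3 ± 6.99 in obese IgG2a mice. In lean mice it was 3.49 ± 2.08 with anti-PD-1 and 4.68 ± 2.20 with IgG2a. TPM raises obesity differences across the table, so the fold changes from counts are the group comparison. The calls for obesity stayed those of the whole-gene counts, with Cd68 and Itgam under IgG2a and Mertk under anti-PD-1.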

How the data were processed

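Poly(A) RNA of tumor-adjacent mammary fat pad was sequenced without strand from samples with an RNA integrity number above 5, per the labels' protocols. The deposited tables give, per the file headers, estimated counts (not normalized) and TPM for 115088 transcripts. The submitters' processing notes name edgeR, limma and GRCm38, and the program behind the estimates was not given in those notes. Of the transcripts, 114200 matched GENCODE M21 on GRCm38, and the other 888 held at most 0.208% of any library's counts. No transcript's effective length varied between libraries.

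Estimated counts were summed per gene, rounded, filtered with filterByExpr (minimum count 10, by group) and scaled by TMM. With edgeR 4.0.16 (R 4.3.3; robust quasi-likelihood, two-sided) the 23 libraries entered a single model of group means, with Benjamini-Hochberg adjustment over 19882 genes. SE is the fold change divided by the root of F. Intervals cover spread between mice. The 5 comparisons were obesity under each antibody, anti-PD-1 in each diet and their interaction. TPM served between genes, for marker sums and in 1 alternative. Alternatives were DESeq2 1.42.0, voom (limma 3.58.1), other filters, log2(TPM + 1), B cell score sets, groups compared alone and libraries left out. Replicate numbers follow sample order and pair nothing, and the labels give no batch.

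The members, lists and B cell cut were chosen with earlier results of these data known. Named genes are the 10 members and, per companion list, up to 3 called genes of smallest p, plus marker genes. A called companion gene is not reported here. Folr2, Cbr2, F13a1, Vsig4 and Ly6g are named as list contents. Spp1 and Gpnmb under IgG2a were named after their values were seen. Promoters come from RefSeq. Estimated counts are not molecules, so depth covers counting error only.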

Additional observations from a re-analysis of the deposited data

Results flagged for a closer look

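Of 40 sets of values (10 genes in 4 groups), 4 had 1 library standing far from the rest by Dixon's criterion. Its rate of about 1 in 20 sets by chance assumes independent and normally distributed values. The values were linear CPM, Timd4 split by the B cell score, and all flags fell in obese anti-PD-1 libraries 3 and 6. Whether 4 flags exceed chance therefore cannot be judged. In obese anti-PD-1 library 6, Cd68 had 68.1 CPM (next highest 41.9 CPM) and Itgam 40.4 CPM (next 24.5 CPM). In obese anti-PD-1 library 3, Lyve1 had 45.3 CPM (next 7.19 CPM) and Timd4 106 CPM (next 41.5 CPM). Library 6 had the highest Csf1r (144 CPM), Adgre1 (68.0 CPM) and Mrc1 (73.6 CPM) of its group as well. Library 3 had the highest B cell score of all libraries, 8.46.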

How the results depend on the processing

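No paired analysis was possible because replicate numbers were given in accession order and link no mice across groups. The first comparison (obese against lean under IgG2a, 2 members called) had 4 called with voom, 0 with libraries below a B cell score of 4, 1 without obese IgG2a libraries 2 and 5, and 1 to 3 with any 1 library left out. The second (under anti-PD-1, 1 called) had 2 with the DESeq2 test, 4 with voom, 3 with log2(TPM + 1), 0 above and 2 below a score of 4, 2 with only the groups compared, 2 without obese IgG2a libraries 2 and 5, and 1 to 2 with a library left out. The third (anti-PD-1 in obese mice, 1 called) had 0 with DESeq2 size factors, no filter, a filter of 1 CPM in 5 libraries, log2(TPM + 1), a score above 4, only the groups compared, without libraries 2 and 5, and with coding transcripts alone, 2 with the DESeq2 test, 3 with voom, 2 with the score as covariate, and 0 to 2 with a library left out. The cause was not tested. Counts for lean mice and the interaction were 0 under every alternative run. Itgam under IgG2a and Mertk under anti-PD-1 each kept their call in 34 of 35 alternatives. Lyve1 under anti-PD-1 turned positive with DESeq2 size factors (0.000986), the DESeq2 test (0.000876), no filter (0.0042), a score above 4 (1.78), without obese IgG2a libraries 2 and 5 (0.032) and with coding transcripts (0.054), and ran from -1.31 to 0.41 with a library left out. Of the 50 results for single members, 36 were never called, and 112 of their 1250 alternative values changed sign. Timd4 and Lyve1 have the widest intervals of the 10 genes.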
